A study of Mus musculus with 16 samples.

Results

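The genes examined here are 38 genes of mitosis and the kinetochore, a set chosen by name from the known machinery of cell division. They were found by symbol among 24497 genes, and all 38 were among the 14972 genes tested. The study measured poly(A) RNA of C2C12 cells, a mouse myoblast line that divides in growth medium and leaves the cell cycle to form muscle fibres in differentiation medium. Per the labels the line comes from skeletal muscle of C57BL/6 mice at postnatal day 21. There were 4 lines: wild-type and MYOD-/- cells, each stably transfected with an empty vector (EV) or with one carrying spliced MUNC, a noncoding RNA. MYOD-/- cells came from CRISPR-Cas9 editing followed by screening of single cells, so they may be 1 clone. Each line was sampled proliferating (GM) and differentiating (DM), with 2 libraries per group and 16 in all. The labels do not say whether the 2 libraries of a group were separate cultures, and the p-values therefore speak of library spread alone, possibly technical.

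Cells divide by entering mitosis under cyclin-dependent kinase 1 with cyclin B, attaching each chromosome to spindle microtubules through the kinetochore, and separating the copies once the spindle checkpoint is satisfied. Once that checkpoint is satisfied, the anaphase-promoting complex marks cyclin B and securin for degradation. The midzone and contractile ring later split the cell. Many of these genes are transcribed mainly in G2 and mitosis and are repressed when myoblasts withdraw from the cycle, so their RNA is widely read as a measure of dividing cells. In these bulk samples, fewer dividing cells and less RNA per dividing cell cannot be told apart.

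The libraries held 35.8 M to 108 M estimated counts. Myod1, the targeted gene, went against the genotype labels: the 4 EV libraries labelled WT held 1 to 18 counts of it and the 4 EV libraries labelled MYOD-/- held 476 to 1858, so groups are called WT-labelled and knockout-labelled by their labels. No label says which part of Myod1 was deleted, and reads outside it would check nothing. Levels are read counts scaled to library size by the TMM method (CPM). Changes are log2 fold changes of DM against GM with their SE, from edgeR's quasi-likelihood test with Benjamini-Hochberg adjustment over all genes tested, called at an adjusted p under 0.05. Each run of values follows the lines in the order given next, with replicate 1 before replicate 2. Of all genes tested, 19.2%, 20.5%, 23.5% and 24.4% rose and 18.3%, 19.2%, 19.7% and 20.4% fell in the 4 lines (WT-labelled EV, WT-labelled MUNC, knockout-labelled EV and knockout-labelled MUNC). Of the 9 myoblast markers, Myf5 (57.6 to 153 CPM) and Itga7 (77.8 to 983 CPM) were present throughout, Des (3.03 to 43.2 CPM), Cdh15 (1.33 to 121 CPM), Chrna1 (3.07 to 607 CPM) and Vcam1 (3.47 to 197 CPM) varied widely, and Pax7 lay at or below 0.118 CPM. In GM, Cdh15 was lower in replicate 2 than in replicate 1 in every line. It stood at 13.8, 11.1, 4.54 and 1.33 CPM against 88.5, 80.9, 85.7 and 79.4 CPM. Des, Chrna1, Vcam1 and Itga7 were also lower in GM replicate 2 in every line, and Myf5 was higher. Myog lay at or below 0.473 CPM in GM. In DM its level differed between lines, at 1.16 and 0.733, 7.91 and 8.14, 22.0 and 24.2, and 33.7 and 27.0 CPM. Of the 8 tested, 2, 2, 3 and 3 rose and 0 fell. Summed markers of leukocytes (0.551 to 2.27 CPM) and adipocytes (0.0393 to 0.852 CPM) were near 0, although leukocyte Cd79a, at or below 0.384 CPM, rose in both knockout-labelled lines (4.13, adjusted p = 0.0112, and 2.68, adjusted p = 0.0227). Those of endothelial cells summed to 0.174 to 15.8 CPM: in both knockout-labelled lines Tek rose, reaching 14.9 CPM (3.74 ± 0.60, adjusted p = 0.000582, and 4.61 ± 0.61, adjusted p = 0.000162), and Cdh5 fell (-2.93, adjusted p = 0.0471, and -2.70, adjusted p = 0.0381). Those of epithelial cells summed to 0.382 to 17.6 CPM: in the WT-labelled EV line Krt8 rose, reaching 16.6 CPM (3.42 ± 0.46, adjusted p = 0.000227), with Krt18 (2.64, adjusted p = 0.0139), while Epcam was at 0 in every library. The 6 fibroblast markers summed to 566 to 3478 CPM in GM and 3835 to 11709 CPM in DM, most of it Col3a1, with Thy1 and Tcf21 at or near 0, and 1, 4, 3 and 3 of the 4 tested rose. The part of these markers in the falls described next was not tested.

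Almost the entire set was lower in differentiating than in proliferating cells in all 4 lines. In the WT-labelled EV line 37 of the 38 genes fell and 0 rose, against 18.3% of all genes tested that fell. All 38 fell in the WT-labelled MUNC line (19.2% of all genes fell) and in the knockout-labelled EV line (19.7%), and 37 fell in the knockout-labelled MUNC line (20.4%). The median log2 fold change of the 38 was -1.95, -1.66, -1.81 and -1.67, beside 0.02, 0.06, 0.08 and 0.05 over all genes tested. Summed over the 38 genes, the level was 5499 to 7257 CPM in the 8 GM libraries and 1587 to 2178 CPM in the 8 DM libraries, with no overlap. As a share of all counts the set went from between 0.515% and 0.742% in GM to between 0.160% and 0.222% in DM. For each of the 38 genes, both GM libraries of a line lay above both of its DM libraries in all 4 lines. Within single lines that held for 32.9%, 33.1%, 32.8% and 31.9% of all genes tested, and in all 4 lines together for 18.8%. For 36 of them every GM library of the study lay above every DM library, against 11.4% of all genes tested, and the exceptions were Pttg1 and Nusap1. Only Pttg1 in the WT-labelled EV line and Spc25 in the knockout-labelled MUNC line missed the threshold. The 3 largest falls were those of Ccnb1, Cdc20 and Ube2c in the first line, Ccnb1, Aurka and Anln in the next, then Ect2, Aurka and Cdc20, and Aurka, Cdc20 and Ccnb1. The 3 smallest were those of Pttg1, Nusap1 and Ndc80, then Nusap1, Ccnb2 and Spc25, then Nusap1, Spc25 and Mki67, and Nusap1, Spc25 and Ndc80.

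**Figure D1:**
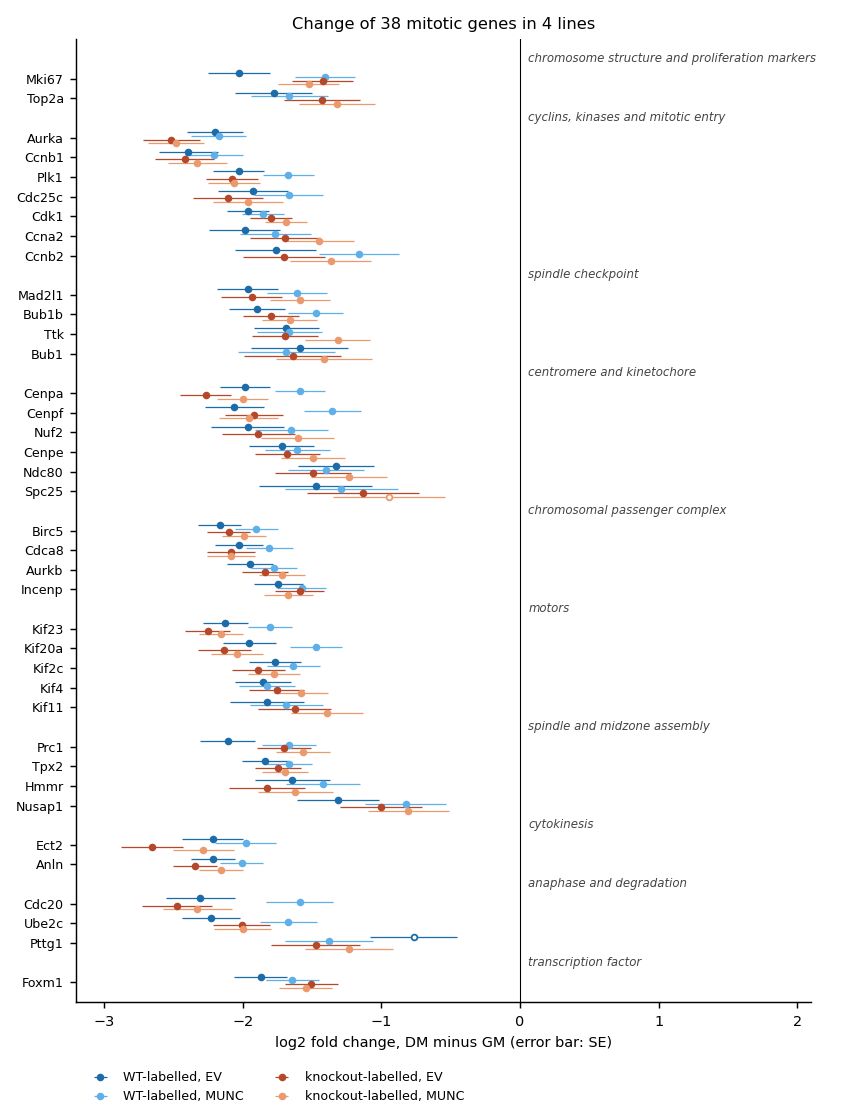
Log2 fold change of DM against GM for each of the 38 genes, grouped by role, in the 4 lines; error bars are SE and open circles did not pass an adjusted p of 0.05. All points lie below 0, between -2.65 and -0.77, and the 2 open circles are Pttg1 and Spc25.

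Mitotic entry is driven by Cdk1, the kinase, with cyclins A2, B1 and B2 (Ccna2, Ccnb1, Ccnb2), the activating phosphatase Cdc25c and the kinases Plk1 and Aurka, which build the spindle poles. All 7 fell in every line. Ccnb1 stood at 217 and 214, 253 and 225, 205 and 211, and 219 and 187 CPM in GM and at 32.1 and 50.1, 47.6 and 56.0, 44.1 and 33.6, and 37.2 and 43.7 CPM in DM. Its lowest GM library was thus well above its highest DM library, and its log2 fold changes were -2.39 ± 0.21, -2.20 ± 0.21, -2.42 ± 0.21 and -2.33 ± 0.21 (adjusted p at most 3.01e-05). Cdk1 stood at 212 and 189, 218 and 195, 254 and 257, and 269 and 217 CPM in GM and at 47.2 and 55.4, 52.7 and 61.3, 80.3 and 67.0, and 73.8 and 76.8 CPM in DM. In GM and DM alike, all 4 knockout-labelled libraries held at least as much Cdk1 as the highest WT-labelled one, apart from 1 GM library at 217 CPM. The changes of Cdk1 from GM to DM were -1.96 ± 0.15, -1.85 ± 0.15, -1.79 ± 0.15 and -1.69 ± 0.15. Aurka, at 106 to 141 CPM in GM and 17.5 to 31.9 CPM in DM, had the largest mean fall of the 38 genes, with log2 fold changes of -2.20 ± 0.20, -2.17 ± 0.20, -2.52 ± 0.20 and -2.48 ± 0.20. Plk1 (-2.08 to -1.67 over the 4 lines), Cdc25c (-2.11 to -1.67) and Ccna2 (-1.99 to -1.45) lay near the median of the set. Ccnb2, a close relative of Ccnb1, changed by -1.76 to -1.16. In the WT-labelled MUNC line the call for Ccnb2 was lost without GM replicate 1 (-0.89, adjusted p = 0.069) or DM replicate 1 (-1.01, adjusted p = 0.0709).

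**Figure D2:**
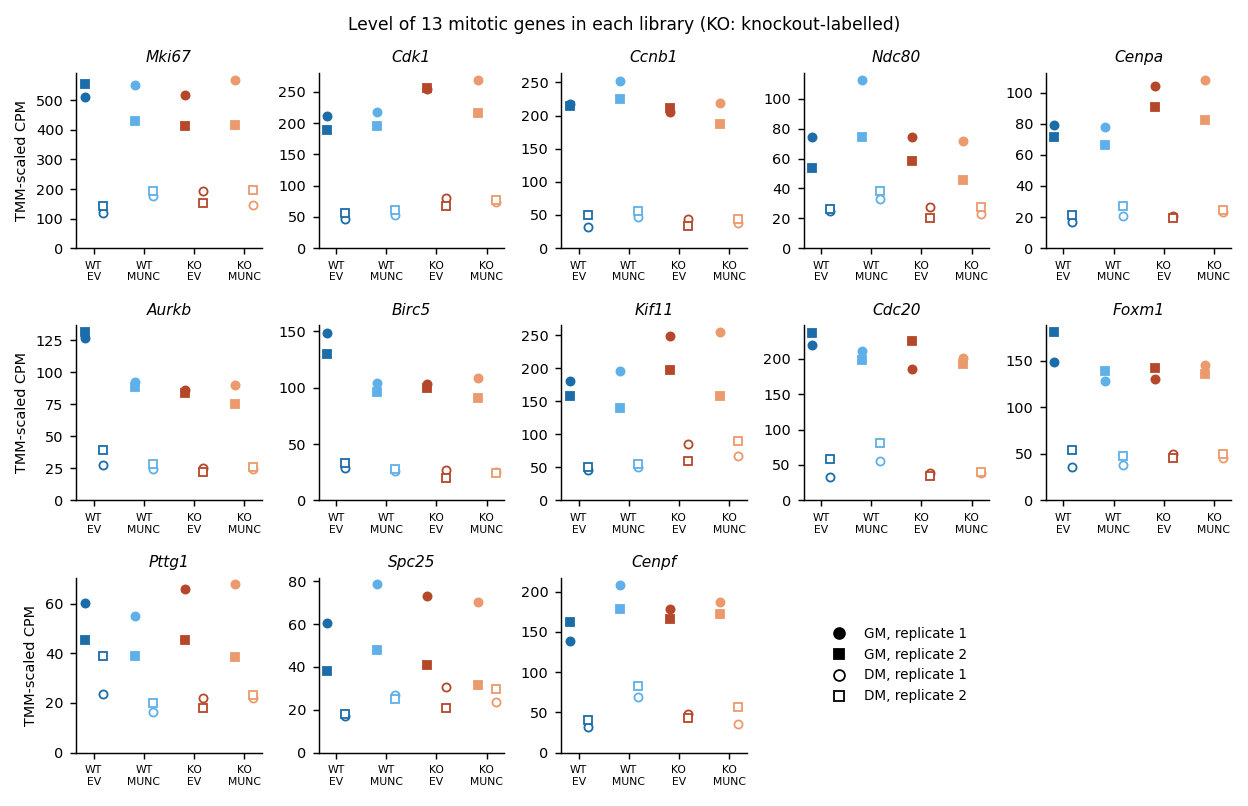
TMM-scaled CPM of 13 of the genes in each of the 16 libraries, on linear axes from 0; filled symbols are GM, open symbols DM, circles replicate 1 and squares replicate 2. Open symbols sit below filled ones within every line, with the closest approach for Spc25 in the knockout-labelled MUNC line (31.3 CPM in GM replicate 2 and 29.5 CPM in DM replicate 2).

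Mki67, which coats mitotic chromosomes and is the usual histological mark of cycling cells, stood at 510.0 and 556, 553 and 430.2, 519 and 414, and 569 and 417 CPM in GM. In DM it stood at 119 and 142, 176 and 195, 195 and 153, and 144 and 198 CPM, so that every DM library lay below every GM library. Its log2 fold changes were -2.03 ± 0.22, -1.41 ± 0.22, -1.42 ± 0.22 and -1.52 ± 0.22, largest in the WT-labelled EV line. Top2a, the topoisomerase that untangles sister chromatids, was at 526 to 1106 CPM in GM and 225 to 323 CPM in DM and changed by -1.78 to -1.32.

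The spindle checkpoint holds anaphase until kinetochores are attached. Its kinases Ttk and Bub1, the kinase-like inhibitor Bub1b and Mad2l1, which binds Cdc20, fell in all 4 lines. The log2 fold changes were -1.97 to -1.58 for Mad2l1, -1.90 to -1.47 for Bub1b, -1.70 to -1.32 for Ttk and -1.69 to -1.41 for Bub1. Bub1 had the largest error of the 4 (SE 0.35), and in the knockout-labelled MUNC line it was not called without GM replicate 1 (-0.93, adjusted p = 0.0577) or DM replicate 1 (-1.24, adjusted p = 0.0588).

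At the centromere, Cenpa is the histone H3 variant that marks where the kinetochore forms. Cenpa stood at 79.3 and 71.6, 77.8 and 66.0, 104 and 90.8, and 108 and 82.7 CPM in GM and at 17.0 and 21.1, 20.4 and 27.4, 20.9 and 19.6, and 23.3 and 24.3 CPM in DM, with every GM library above every DM library. Its log2 fold changes were -1.98 ± 0.18, -1.59 ± 0.18, -2.27 ± 0.19 and -1.999 ± 0.18, the most negative of the 6 kinetochore genes in both knockout-labelled lines. Ndc80, the microtubule-binding subunit of the outer kinetochore, stood at 74.5 and 53.9, 113 and 74.7, 74.7 and 58.4, and 72.0 and 45.5 CPM in GM and at 24.7 and 26.5, 32.9 and 38.2, 27.4 and 19.9, and 22.6 and 27.3 CPM in DM. Replicate 2 was the lower GM library of Ndc80 in every line, and its log2 fold changes were -1.33 ± 0.27, -1.40 ± 0.27, -1.49 ± 0.28 and -1.23 ± 0.27. The log2 fold change was -1.96 to -1.60 for its partner Nuf2 and -1.47 to -0.94 for Spc25, another subunit of the same complex, with an SE of 0.40 to 0.41. Cenpe, the kinesin that carries chromosomes to the spindle equator, changed by -1.72 to -1.49.

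Spc25 was the member least separated from its spread. It stood at 60.3 and 37.9, 78.7 and 47.9, 73.0 and 40.7, and 70.5 and 31.3 CPM in GM and at 17.2 and 18.1, 26.7 and 25.2, 30.8 and 21.0, and 23.5 and 29.5 CPM in DM. In GM, replicate 2 held 44.4% to 62.9% of replicate 1. Spc25 passed in the first 3 lines (-1.47, -1.29 and -1.13, adjusted p = 0.0149, 0.026 and 0.0414) and not in the knockout-labelled MUNC line (-0.94 ± 0.40, adjusted p = 0.0772). Each of the 3 calls was lost without GM replicate 1, and also without either DM library. In the fourth line it passed without GM replicate 2 (-1.45, adjusted p = 0.0146) and with DESeq2 (-0.97, adjusted p = 0.0412), and without GM replicate 1 it changed by -0.24.

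Cenpf, a large protein of the kinetochore corona, stood at 139 and 162, 209 and 179, 178 and 166, and 187 and 173 CPM in GM and at 31.8 and 40.4, 69.4 and 82.2, 48.0 and 43.2, and 35.7 and 57.1 CPM in DM. The WT-labelled MUNC line held the highest level in DM, and the log2 fold changes were -2.06 ± 0.21, -1.35 ± 0.21, -1.92 ± 0.21 and -1.96 ± 0.21.

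The chromosomal passenger complex, made of the kinase Aurkb, its activating scaffold Incenp, survivin (Birc5) and borealin (Cdca8), corrects faulty attachments and then acts in cytokinesis. All 4 genes fell in all 4 lines. Aurkb stood at 127 and 131, 92.0 and 88.3, 86.0 and 83.5, and 89.9 and 75.4 CPM in GM and at 27.8 and 39.1, 24.2 and 28.4, 25.5 and 21.8, and 24.3 and 26.0 CPM in DM. Both WT-labelled EV libraries were the highest of their condition apart from 1 DM library that lay below the highest WT-labelled MUNC library. The log2 fold changes of Aurkb were -1.95 ± 0.17, -1.78 ± 0.17, -1.84 ± 0.17 and -1.72 ± 0.16. Birc5 stood at 149 and 130.1, 104 and 96.2, 103 and 99.7, and 108 and 91.2 CPM in GM and at 29.0 and 33.1, 26.0 and 27.7, 27.3 and 20.0, and 25.6 and 24.6 CPM in DM, again with the highest GM levels in the WT-labelled EV line. Its log2 fold changes were -2.17 ± 0.16, -1.90 ± 0.16, -2.10 ± 0.16 and -1.99 ± 0.16. Cdca8 (-2.08 to -1.81) changed about as much and Incenp (-1.74 to -1.58) somewhat less.

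Among the motors, Kif11 is the kinesin that pushes the spindle poles apart. It stood at 181 and 159, 197 and 140.5, 249 and 197, and 255 and 158 CPM in GM and at 45.4 and 50.6, 50.5 and 54.4, 84.7 and 60.0, and 66.9 and 90.3 CPM in DM, with replicate 2 below replicate 1 in GM in every line. Its log2 fold changes were -1.82 ± 0.27, -1.68 ± 0.26, -1.62 ± 0.26 and -1.39 ± 0.26. Kif23 (-2.25 to -1.80) and Kif20a (-2.13 to -1.47), which work at the midzone, Kif2c (-1.89 to -1.63), which depolymerises microtubules at centromeres, and Kif4 (-1.85 to -1.58), a chromosome-bound kinesin, also fell in all 4 lines. Of the spindle and midzone assembly factors, Prc1, which bundles midzone microtubules, changed by -2.11 to -1.56, Tpx2, the activator of Aurka, by -1.84 to -1.66, and Hmmr by -1.82 to -1.42.

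Nusap1, a spindle microtubule-binding protein, had the smallest mean fall of the 38 genes (-1.31 ± 0.30, -0.83 ± 0.30, -1.002 ± 0.30 and -0.80 ± 0.30). It was at 46.5 to 101 CPM in GM and 27.7 to 48.2 CPM in DM. Without GM replicate 1 its change in the knockout-labelled MUNC line was -0.32 (adjusted p = 0.41), and in the WT-labelled MUNC line -0.48 (adjusted p = 0.305). In both lines its call was also lost without either DM library. In the knockout-labelled EV line it was lost without GM replicate 1 (-0.83, adjusted p = 0.0835) or DM replicate 2 (-0.84, adjusted p = 0.129).

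Cytokinesis genes were among those that fell most. Anln, a scaffold of the contractile ring, was at 349.7 to 435 CPM in GM and 74.8 to 108 CPM in DM and had log2 fold changes of -2.22 ± 0.16, -2.01 ± 0.16, -2.34 ± 0.16 and -2.16 ± 0.16. Ect2, which activates RhoA at the cleavage site, had the largest fall of the set in any line, -2.65 ± 0.22 in the knockout-labelled EV line, and -2.65 to -1.98 over the 4 lines.

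Cdc20 activates the anaphase-promoting complex, Ube2c is its ubiquitin-conjugating enzyme and Pttg1 encodes securin, the inhibitor of separase. Cdc20 stood at 219 and 237, 211 and 199, 186 and 225, and 200.4 and 193 CPM in GM and at 33.3 and 59.1, 55.4 and 80.7, 39.2 and 34.7, and 38.6 and 39.8 CPM in DM. The GM levels overlapped between lines, and both WT-labelled MUNC libraries lay above all 4 knockout-labelled libraries in DM. Its log2 fold changes were -2.30 ± 0.25, -1.59 ± 0.24, -2.47 ± 0.25 and -2.33 ± 0.25. Ube2c changed by -2.23 to -1.67. Pttg1 stood at 60.3 and 45.5, 54.9 and 39.0, 66.1 and 45.3, and 68.0 and 38.7 CPM in GM and at 23.4 and 38.8, 16.3 and 19.8, 22.0 and 18.1, and 22.0 and 23.3 CPM in DM. Its highest DM library was replicate 2 of the WT-labelled EV line. In that line the change of -0.77 ± 0.31 did not pass (adjusted p = 0.0774), and without that library it was -1.16 (adjusted p = 0.0375). In the other 3 lines Pttg1 fell by 1.38 ± 0.32 and 1.47 ± 0.32 and 1.23 ± 0.32 on the log2 scale, the last of these not called without GM replicate 1 (-0.77, adjusted p = 0.0793) or DM replicate 1 (adjusted p = 0.0515).

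Foxm1, the forkhead transcription factor that switches on many late cell cycle genes, stood at 149 and 181, 128 and 139, 129.9 and 142, and 145 and 136 CPM in GM and at 35.5 and 54.6, 38.1 and 47.2, 50.0 and 45.7, and 46.0 and 50.3 CPM in DM. Every GM library of Foxm1 lay above every DM library, and its log2 fold changes were -1.87 ± 0.19, -1.64 ± 0.19, -1.51 ± 0.19 and -1.54 ± 0.19.

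Levels between genes were compared per length, as TPM. Over the 8 GM libraries Ube2c had the highest mean level at 305 TPM (range 243 to 352), followed by Top2a (263 TPM, range 180.4 to 360.3), Birc5 (236), Cdc20 (224) and Ccna2 (197). The ranges of all these genes overlapped over the GM libraries together. Within every single GM library Ube2c lay above Birc5, Cdc20 and Ccna2. Its order with Top2a changed between libraries (352 against 360.3 TPM in WT-labelled EV replicate 1). Cenpf (27.1), Cdc25c (29.9) and Ttk (31.3) had the lowest means, also with overlapping ranges. In DM Top2a and Ube2c led, at 105 and 89.9 TPM, and Pttg1 came next at 81.6 TPM. Their ranges overlapped as well (85.3 to 127, 68.4 to 105 and 58.5 to 127 TPM).

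Levels were also compared between the 2 replicates. In GM, 22 of the 38 genes were lower in replicate 2 than in replicate 1 in all 4 lines, and 1, Incenp, was higher in all 4. The mean level of replicate 2 was 56.0% of replicate 1 for Spc25, 63.1% for Bub1, 67.7% for Nusap1 and 68.0% for Pttg1. In DM no gene was lower in replicate 2 in all 4 lines. No share of all genes tested stands beside these counts, so nothing particular to the 38 genes is read from them. The 2 replicates also differed in Zrsr1, which encodes a splicing factor and held 1.49% to 13% of the counts in replicate 2 against at most 0.0344% in replicate 1. With Zrsr1 left out of the counts, 37, 38, 38 and 37 of the genes were called, as with it. Within replicate 1 alone the median change of the 38 was -2.13, -1.89, -1.76 and -1.97, and within replicate 2 alone -1.74, -1.39, -1.94 and -1.44. All 38 were lower in DM within each replicate of each line.

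Genes of the same processes outside the 38 were examined as 8 lists. Of 31 other mitotic kinesin, spindle and centrosome genes, all 31 fell in each of the 4 lines, with medians of -1.74, -1.55, -1.82 and -1.59. They were led by Gtse1, a microtubule plus-end protein, with log2 fold changes of -2.11 ± 0.24, -2.23 ± 0.25, -2.01 ± 0.24 and -1.91 ± 0.24. Fam83d (-2.46 to -1.55), which targets casein kinase to the spindle, and the centrosomal kinase Nek2 (-2.19 to -1.73) came next. Ckap5, a microtubule polymerase, changed least (-0.82 to -0.57). Of 37 other kinetochore and centromere genes, 34, 35, 35 and 34 fell and 0 rose, with medians of -1.26, -1.33, -1.19 and -0.99. Trip13, the ATPase that remodels Mad2, fell most (-2.11 ± 0.19, -2.68 ± 0.20, -2.52 ± 0.20 and -2.38 ± 0.19), then Ska1 (-2.11 to -1.77) and Spdl1 (-2.03 to -1.91), while Cenpc1 did not pass in any line (-0.54 to -0.20). Of 21 condensin, cohesion and separase genes, 19, 18, 18 and 15 fell and 0 rose. The protease separase (Espl1, -2.18 to -1.89) and the condensin subunits Smc2 (-1.95 to -1.37) and Ncapg (-1.85 to -1.53) fell most, and the cohesin regulator Pds5b changed least (-0.42 to 0.11, passing only in the WT-labelled EV line at adjusted p = 0.0495).

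The lists of other genes are read against the shares of all genes tested that fell (18.3%, 19.2%, 19.7% and 20.4%) and rose (19.2%, 20.5%, 23.5% and 24.4%) in the 4 lines. Of 17 anaphase-promoting complex subunits and inhibitors, 9, 6, 6 and 6 fell and 0, 2, 1 and 1 rose, with medians of -0.41, -0.38, -0.22 and -0.21. The inhibitor Fbxo5 (-1.83 to -1.41), the subunit Anapc15 (-1.52 to -1.35) and the conjugating enzyme Ube2s (-1.44 to -1.14) fell most, and Cdc26 changed by -0.21 to 0.12 without passing. Of 15 mitotic entry regulators, 10, 11, 10 and 9 fell and 1 rose in each line. Cyclin F (Ccnf, -1.96 to -1.73), Bora, the cofactor of Aurka (-2.20 to -1.66), and Cks1b (-1.71 to -1.55) fell most, and Arpp19 changed by -0.19 to 0.22 without passing.

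Of 15 genes of the MuvB, MYB and DREAM complexes, which bind the promoters of late cell cycle genes, 8, 9, 9 and 6 fell and 0, 1, 2 and 2 rose. Mybl2, the activating MYB partner of MuvB, fell most (-2.90 ± 0.21, -2.72 ± 0.21, -2.06 ± 0.21 and -2.08 ± 0.21), followed by the MuvB subunit Lin9 (-1.57 to -1.05) and the E2F partner Tfdp1 (-1.44 to -1.05). E2f5 changed by -0.62 to 0.37, passing only in the knockout-labelled EV line (adjusted p = 0.04). Of 7 CDK inhibitor and pocket protein genes tested out of 10, 2, 3, 2 and 3 rose and 2, 1, 2 and 0 fell. With 7 genes, nothing is read from these counts beside the shares of all genes given above. Cdkn1b, which encodes p27, rose in 3 lines and missed the threshold in the knockout-labelled EV line (0.89 ± 0.26, 0.94 ± 0.26, 0.68 ± 0.26 and 0.93 ± 0.26). Rbl2, the pocket protein of DREAM, also rose in 3 lines (0.45 ± 0.18, 0.88 ± 0.18, 0.78 ± 0.18 and 0.90 ± 0.18, not called in the WT-labelled EV line). Cdkn2c fell in both EV lines (-1.52 ± 0.22, -0.51 ± 0.21, -0.63 ± 0.21 and -0.33 ± 0.21), and Rb1 passed in none (-0.18 to 0.60).

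Other kinesins, which act in interphase, belong to the same family as the mitotic ones, and the list of them also held light chains. Of its 19 genes, 7, 9, 9 and 9 rose and 2, 1, 0 and 1 fell, with medians of 0.35, 0.39, 0.38 and 0.36. Of all genes tested, 19.2%, 20.5%, 23.5% and 24.4% rose. Kif26b (0.88 to 1.71) rose in all 4 lines, as did the light chain Klc4 (1.22 ± 0.17, 1.26 ± 0.17, 1.17 ± 0.17 and 1.02 ± 0.16). Kif21b passed in the WT-labelled EV line (3.19 ± 1.05, adjusted p = 0.0337) and in no other line, and Klc2 changed by -0.09 to 0.14 without passing.

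**Figure D3:**
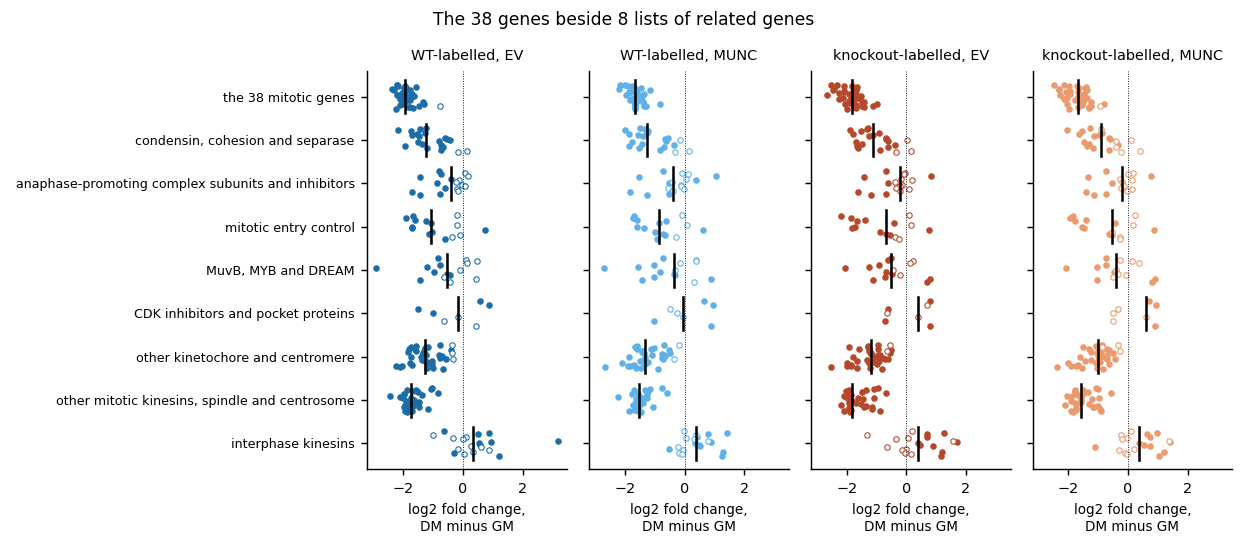
Log2 fold change of DM against GM for the 38 genes and for each tested gene of 8 lists of related genes in the 4 lines; each point is a gene, open points did not pass an adjusted p of 0.05, and black bars are medians. The 38 genes (medians -1.95 to -1.66) and the other spindle genes (-1.82 to -1.55) lie lowest, and interphase kinesins have medians above 0 (0.35 to 0.39).

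Since the genes fell together, the 300 bases around their start sites (250 before and 50 after, RefSeq, GRCm38.p6) were searched on both strands for a pair of motifs. TTTGAA, read as TTCAAA on the other strand, is the core of the cell cycle genes homology region (CHR), to which MuvB complexes bind. CCAAT, read as ATTGG on the other strand, is the site of NF-Y. Windows were matched for 31 of the 38 genes. No window was matched for Ccna2, Cdc25c, Aurkb, Incenp, Kif20a, Tpx2 and Foxm1. The CHR motif was found for 23 of the 31 (74.2%), against 20.2% of all 27025 genes with a window. The NF-Y motif was found for 23 (74.2%), against 41.1% of all genes, and both for 20 (64.5%), against 7.97%. A match is a description of these letters and no evidence of binding. The 20 genes with both motifs had a median mean change of -1.79 and the other 11 of -1.77.

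The 120 bases before the start of the 8 genes with both motifs and the largest mean falls are printed 5′ to 3′ in the direction of the gene, to show where the motifs lie. Capitals mark both motifs on either strand. The last base of each line is the base before the start. Only the first listed annotated start of each gene was used here, and positions below hold for that start. Ect2 had another annotated start, with other positions.
Aurka (chr2:172370571-172370690, minus strand): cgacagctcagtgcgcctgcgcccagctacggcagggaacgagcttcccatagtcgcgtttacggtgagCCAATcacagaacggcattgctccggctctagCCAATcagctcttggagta
Ect2 (chr3:27153879-27153998, minus strand): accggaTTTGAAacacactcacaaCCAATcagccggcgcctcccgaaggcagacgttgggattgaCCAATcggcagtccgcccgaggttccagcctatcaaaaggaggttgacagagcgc
Cdc20 (chr4:118437344-118437463, minus strand): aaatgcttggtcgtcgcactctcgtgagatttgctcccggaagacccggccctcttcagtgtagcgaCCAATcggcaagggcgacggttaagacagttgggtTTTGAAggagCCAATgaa
Kif23 (chr9:61946800-61946919, minus strand): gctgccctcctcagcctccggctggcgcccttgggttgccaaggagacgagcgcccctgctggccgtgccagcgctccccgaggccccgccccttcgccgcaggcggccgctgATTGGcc
Cdca8 (chr4:124936918-124937037, minus strand): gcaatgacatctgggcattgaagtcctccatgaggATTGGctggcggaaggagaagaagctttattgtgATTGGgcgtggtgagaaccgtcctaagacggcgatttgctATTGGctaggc
Ube2c (chr2:164769809-164769928, plus strand): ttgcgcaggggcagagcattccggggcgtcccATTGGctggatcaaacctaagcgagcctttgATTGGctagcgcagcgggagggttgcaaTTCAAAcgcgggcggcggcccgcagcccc
Plk1 (chr7:122159315-122159434, plus strand): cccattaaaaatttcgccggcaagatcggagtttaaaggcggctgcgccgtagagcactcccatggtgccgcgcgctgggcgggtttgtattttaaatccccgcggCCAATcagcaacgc
Cenpa (chr5:30666766-30666885, plus strand): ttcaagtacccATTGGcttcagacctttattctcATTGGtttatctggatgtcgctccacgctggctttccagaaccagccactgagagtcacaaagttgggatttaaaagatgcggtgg

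In Cdc20 and Ube2c, the CHR motif lay within this stretch, close to the start (first base at -18 and -29), with an NF-Y motif on its 5′ side at -53 and -57. Cdc20 held another NF-Y motif on the 3′ side of its CHR motif, at -8. Ube2c held others further upstream, the nearest at -88. In Ect2 the CHR motif lay at -114 and again beyond the start. In Aurka, Kif23, Plk1 and Cenpa it lay at or beyond the start, at 33 in Aurka, 3 in Kif23, 31 in Plk1 and 17 in Cenpa. Here the first base from the annotated start used counts as 1. These sites are printed with up to 9 bases on each side.
Aurka (chr2:172370524-172370547, minus strand): aggagaaccTTTGAAttgtaacgg
Ect2 (chr3:27153829-27153848, minus strand): ctggattttTTTGAAtcgga
Kif23 (chr9:61946783-61946806, minus strand): ATTGGcctgTTTGAAatgcgccgg
Plk1 (chr7:122159456-122159479, plus strand): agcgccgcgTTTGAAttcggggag
Cenpa (chr5:30666893-30666916, plus strand): gggtgatttTTTGAActgctggcg
Upstream of the start, the NF-Y motif began at -51 and -19 in Aurka, -96 and -55 in Ect2 and -7 in Kif23. It began at -85, -51 and -11 in Cdca8, -14 in Plk1 and -109 and -86 in Cenpa.

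Whether the fall itself differed between lines was tested as the difference of 2 DM against GM changes, each pair of lines sharing no libraries. In none of 4 such tests did any of the 38 genes pass with edgeR or with DESeq2. Between the EV lines (knockout- minus WT-labelled), where 2.58% of all genes passed, 0 genes had an unadjusted p under 0.05, and the difference had a median of 0.05 and a range of -0.71 to 0.60. Between the MUNC lines (1.38% of all genes passed) 2 genes, Kif20a and Cdc20, had an unadjusted p under 0.05, and the range was -0.74 to 0.35. Between the WT-labelled lines (MUNC minus EV, 3.33%) 1 gene, Cenpf, did (0.71 ± 0.29, adjusted p = 0.233). There 35 of the 38 differences were above 0, which means smaller falls in the MUNC line, with a median of 0.22. Between the knockout-labelled lines (0%) no gene had an unadjusted p under 0.05, and 33 were above 0 with a median of 0.14. No share of all genes above 0 stands beside these sign counts. The 38 genes were measured in the same libraries, so their signs are not independent, and nothing is read from these counts. The 95% interval of a single difference, not adjusted for the number of genes, reached 0.63 on either side at the median. Differences of -0.74 (between the MUNC lines) and 0.71 (Cenpf, between the WT-labelled lines) were not called. These tests could thus miss differences in a single gene larger than that interval.

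**Figure D4:**
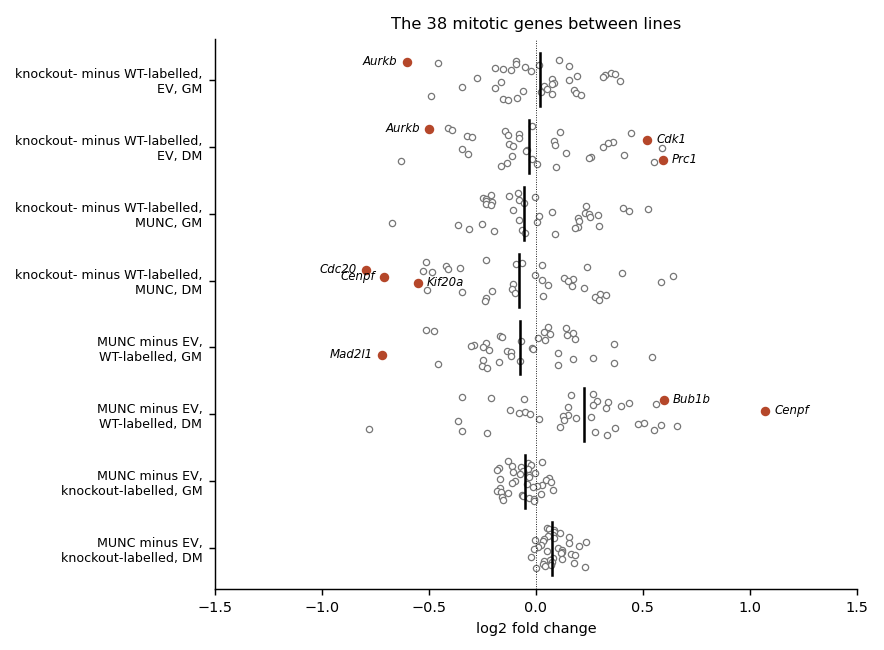
Log2 fold change of each of the 38 genes between lines at matched condition, in 8 comparisons; red points are named and passed an adjusted p of 0.05, grey open points did not, and black bars are medians. The medians lie between -0.08 and 0.22, and the points of the 2 knockout-labelled MUNC against EV comparisons lie within -0.18 to 0.24.

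Levels between lines were compared within each condition. In EV cells in GM, 1 of the 38 genes, Aurkb, was lower in the knockout-labelled cells, against 5.77% of all genes that were lower. Aurkb was at 129 ± 3.04 CPM (SD, n = 2 libraries) in the WT-labelled and 84.8 ± 1.77 CPM in the knockout-labelled cells (log2 fold change -0.60 ± 0.16, adjusted p = 0.0358, edgeR). That call was lost without any 1 of the 4 libraries, with changes of -0.63 to -0.54 and adjusted p of 0.12 to 0.195. In DM, Aurkb was again lower in the knockout-labelled EV cells (log2 fold change -0.50 ± 0.16, adjusted p = 0.0358, against 16.1% of all genes lower). Cdk1 (0.52 ± 0.15, adjusted p = 0.0201) and Prc1 (0.59 ± 0.19, adjusted p = 0.0355) were higher there, against 15.3% of all genes higher. Without DM replicate 2 of the WT-labelled line, Aurkb differed by -0.26 (adjusted p = 0.295), and its call was also lost without either knockout-labelled library. Those of Cdk1 (0.38 and 0.35) and Prc1 (0.40 and 0.35) were lost without DM replicate 1 of the WT-labelled or of the knockout-labelled line, and that of Prc1 also without DM replicate 2 of the WT-labelled line (0.75).

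With MUNC, knockout- and WT-labelled cells in GM differed in 0 of the 38 genes with edgeR and with DESeq2 (3 at an unadjusted p under 0.05, 9.99% of all genes called). In DM, 3 genes were lower in the knockout-labelled cells, against 9.89% of all genes: Cdc20 (68.0 ± 17.9 against 39.2 ± 0.882 CPM, log2 fold change -0.80 ± 0.24, adjusted p = 0.0333, edgeR), Cenpf (log2 fold change -0.71 ± 0.21, adjusted p = 0.029) and Kif20a (log2 fold change -0.55 ± 0.18, adjusted p = 0.0494). Cdc20 was not called without replicate 2 of the WT-labelled line (-0.50) or either knockout-labelled library (-0.78 and -0.82). Cenpf was not called without either WT-labelled library (-0.84 and -0.58) or replicate 1 of the knockout-labelled line (-0.42), and Kif20a without any 1 of the 4.

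Few of the genes differed between MUNC and EV lines. This difference is called the MUNC effect below. Each vector was in a single line per genotype label, so vector and line cannot be told apart. In WT-labelled cells in GM, Mad2l1 was lower (70.0 ± 14.0 with MUNC against 115 ± 20.7 CPM with EV, log2 fold change -0.72 ± 0.21, adjusted p = 0.0452, edgeR), against 7.71% of all genes that were lower, and it was not called with any 1 of the 4 libraries left out (-0.94 to -0.52). In DM, Cenpf was higher with MUNC, at 75.8 ± 9.03 against 36.1 ± 6.14 CPM (log2 fold change 1.07 ± 0.21, adjusted p = 0.00242, edgeR), against 15.6% of all genes that were higher. This call held without each of the 4 libraries in turn. Bub1b was also higher (0.60 ± 0.19, adjusted p = 0.0349), but not without replicate 1 of the EV line (0.42, adjusted p = 0.219) or replicate 2 of the MUNC line (0.39, adjusted p = 0.255). In DM, 27 of the 38 genes were above 0 in this comparison, with a median of 0.22, and nothing is read from this count either. In knockout-labelled cells 0 of the 38 genes passed in GM or DM with edgeR or DESeq2, with 0 at an unadjusted p under 0.05 and 0% of all genes called. Their differences ranged from -0.18 to 0.08 in GM and from -0.02 to 0.24 in DM, with a 95% interval of 0.45 on either side at the median. The knockout-labelled MUNC libraries held 2803 to 8618 counts of MUNC (Gm45923), against 102472 to 279019 in the WT-labelled ones. Tested directly, in a comparison added after the data were seen, the MUNC effect differed between genotype labels in 0 of the 38 genes in GM (4.93% of all genes) and in 1, Cenpf, in DM (18.1%). The comparisons between lines share libraries. The WT-labelled MUNC libraries in DM enter every comparison between lines that called Cenpf, the difference of MUNC effects among them.

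Transcripts of 12 of the 38 genes could be compared, each having at least 2 RefSeq transcripts that reached 1 TPM in a group. For each of 32 transcripts its share of the gene's TPM was compared between GM and DM by a two-sided exact permutation test within lines (1296 arrangements, smallest possible p = 0.0015), with Benjamini-Hochberg adjustment over the 32. Cenpa showed the largest shift. Its transcript NM_007681 made up 47.6 and 46.6, 48.4 and 48.6, 47.3 and 50.0, and 50.0 and 55.3% of Cenpa in GM and 35.6 and 34.2, 33.9 and 31.0, 28.9 and 34.3, and 36.3 and 33.7% in DM. Every GM library lay above every DM library, and the mean difference was -15.8 percentage points (adjusted p = 0.0123, exact permutation test, n = 16 libraries, in the same direction in 4 of 4 lines). NM_001302129 went the other way, from 47.2 and 46.7, 44.2 and 43.8, 47.7 and 42.8, and 43.3 and 33.9% to 54.7 and 58.1, 57.9 and 62.0, 61.4 and 61.0, and 59.8 and 60.7% (15.7 points, adjusted p = 0.0123, exact permutation test). NM_001302129 is 137 bases longer, and GENCODE M21 has a Cenpa exon of that length at chr5:30669692-30669828 (GRCm38). That exon was found by its length alone, and whether it sets these transcripts apart was not tested. In both conditions these 2 transcripts together made up most of Cenpa RNA.

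Tpx2 had a smaller shift. NM_028109 made up 20.3% to 29.4% of Tpx2 in the GM libraries and 11.0% to 19.4% in the DM libraries, without overlap (-9.14 points, adjusted p = 0.0123, exact permutation test). NM_001141976 rose from 15.6% to 21.6% in GM to 21.2% to 33.4% in DM (8.02 points, adjusted p = 0.0123, exact permutation test). Shares of minor transcripts of Birc5 (1.42 points), Cenpa (1.48 points), Prc1 (-1.13 points) and Pttg1 (0.65 points) also passed, with adjusted p of 0.0165 to 0.0444 by the exact permutation test and overlapping ranges. None of the transcripts of Aurka, Bub1, Ect2, Kif20a, Nusap1, Spc25 and Ttk passed, with adjusted p of 0.0584 to 0.88. kallisto divides fragments that fit several transcripts, so these shares are estimates, and their error within a library was not used here.

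**Figure D5:**
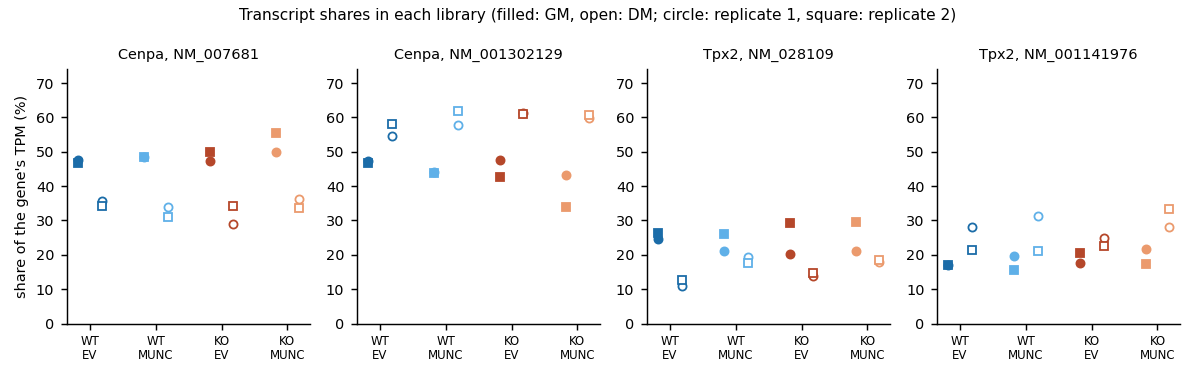
Share of the gene's TPM taken by 2 transcripts of Cenpa and 2 of Tpx2 in each library, by line; filled symbols are GM and open symbols DM. NM_007681 lies at 46.6% to 55.3% of Cenpa in GM and 28.9% to 36.3% in DM, and NM_001302129 at 33.9% to 47.7% and 54.7% to 62.0%.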

How the data were processed

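Poly(A) RNA of 16 libraries in 8 groups of 2 was sequenced and quantified by the authors with kallisto after bcl2fastq, on mm10, per the submitters' processing notes, whose versions are not stated there. The deposited files hold estimated counts and TPM per RefSeq transcript. Of 35818 transcripts, 35492 were matched to symbols by a RefSeq table (GRCm38.p6) and 188 by GENCODE M21. The 138 without a symbol, holding 0.280% to 0.941% of the counts, were left out. Estimated counts were summed per gene and rounded to whole numbers. One edgeR (4.0.16) quasi-likelihood model in R 4.3.3 fitted a mean for each of the 8 groups, with TMM scaling, edgeR's own filter on low counts and Benjamini-Hochberg adjustment over 14972 genes, on 8 residual degrees of freedom. The SE is the size of the log2 fold change divided by the square root of F. Transcript shares were taken from TPM and tested by exact permutation. Alternatives were DESeq2 (1.42.0), its size factors, other filters, limma (3.58.1) on log2(TPM + 1), effective lengths, Zrsr1 left out, only the libraries compared, a replicate block, each library left out, and a stricter threshold. The fit was tested on simulated data.

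The genes and lists were chosen with earlier results of these data known. All 38 are named. Values in every library are given for 10 chosen genes and for any gene that missed a DM against GM call or passed in a difference of responses. From each list of related genes, the 3 with the largest called mean change and the 1 with the smallest are named. The difference of MUNC effects between genotype labels was added after the data were seen. A promoter site of 1 of the genes is not reported here.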

Additional observations from a re-analysis of the deposited data

Results flagged for a closer look

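The difference in Cenpf between MUNC and EV lines in DM (the MUNC effect) was not the same for the genotype labels. In WT-labelled cells Cenpf was higher with MUNC (75.8 against 36.1 CPM) and in knockout-labelled cells it was not called (log2 fold change 0.02 ± 0.20). The difference of these effects, knockout- minus WT-labelled, was -1.05 ± 0.29 (adjusted p = 0.029, edgeR quasi-likelihood test, 95% interval -1.68 to -0.41), and 18.1% of all genes tested passed in the same comparison. Cenpf was the only one of the 38 genes to pass there, and in GM 0 did. This comparison was chosen after the data were seen. In DM the call was lost without WT-labelled EV replicate 1 (adjusted p = 0.105), WT-labelled MUNC replicate 2 (0.11), knockout-labelled EV replicate 1 (0.103) or replicate 2 (0.0646), or knockout-labelled MUNC replicate 1 (0.0868). The differences then ranged from -1.12 to -0.73. The knockout-labelled MUNC libraries also held far fewer counts of MUNC than the WT-labelled ones, and the part of this in the difference was not tested.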

How the results depend on the processing

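The number of the 38 genes called from GM to DM lay between 36 and 38 in each line under every setting that kept all libraries, and without 1 library between 36 and 37, 35 and 38, 36 and 38, and 34 and 38 (WT-labelled EV, WT-labelled MUNC, knockout-labelled EV, knockout-labelled MUNC). Of 1976 recomputed changes of single genes 0 reversed, 29 lost their call and 4 gained one. Of the gains, 3 were those of Spc25 in the knockout-labelled MUNC line, 1 of them with the replicate block (-0.83, adjusted p = 0.038). limma on log2(TPM + 1) put the median of all genes at 0.12, 0.18, 0.26 and 0.26, and that of the 38 at -1.74, -1.40, -1.53 and -1.37. Calls between lines changed with the setting. Knockout- against WT-labelled EV cells in GM (1 gene) gave 0 with DESeq2's size factors, with no filter, with only the libraries compared, at an adjusted p of 0.01 and without any 1 library, and 2 with the replicate block. In DM (3 genes) they gave 1 with no filter or with only the libraries compared, 0 at 0.01, and 1 to 4 without 1 library. With MUNC in DM (3 genes) the count was 5 with DESeq2, 8 with only the libraries compared, 0 at 0.01, and 0 to 1 without 1 library. MUNC against EV in WT-labelled cells in GM (1 gene) gave 3 with DESeq2 or the replicate block, 2 at 5 CPM in 2 libraries, and 0 with DESeq2's size factors, no filter, Zrsr1 left out, only the libraries compared, 0.01 or any 1 library left out. In DM (2 genes) the count was 4 with limma, 6 with only the libraries compared, 1 at 0.01, and 1 to 6 without 1 library. The difference of MUNC effects in DM (1 gene) gave 0 at 0.01 and 0 to 1 without 1 library. The stricter threshold and the smaller set of libraries change these counts by construction, and for the other settings the cause was not tested. The labels do not say what a replicate number stands for, so no pairing is read from the replicate block. With 2 libraries a group, 1 library decides most calls between lines. A group left with 1 library is assumed to vary like the others.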
